A study of Mus musculus with 23 samples.

Results

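The hair shaft is built from hair keratins and keratin-associated proteins (KAPs), and their genes were followed here in mouse back skin after ultraviolet light (UV) with and without a kinase inhibitor. They were taken by name: every gene whose current or older symbol starts with Krtap, and 13 hair keratins listed by symbol, from Krt31 to Krt36 and from Krt81 to Krt86. The rule found 38 genes of the 12106 on the arrays, namely 7 type I keratins, 4 type II keratins and 27 KAP genes. They had 40 probe sets of 19645, and where a gene had several, the brightest on average over the arrays was used. Krt82 and Krt85 were not analysed here, and 3 probe sets that name several genes were left out. The gene listed as 2310057N15Rik entered through an older name.

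RNA came from whole back skin of adult female mice of the outbred CD-1 stock, clipped the day before and shaved on the day of treatment, and it was read on 23 oligonucleotide arrays. All mice had their backs painted with the solvent DMSO, in 3 of the 6 groups with 4 mg of AG825 dissolved in it, a tyrphostin that inhibits Erbb2, a receptor tyrosine kinase. They were exposed 2 h later to 10 kJ per square metre of UV or to a sham. DMSO skin was taken 6 h after sham, 6 h after UV and 24 h after UV, with 4 arrays for each. AG825 skin was taken at the same times, with 4, 4 and 3 arrays. Sham skin was taken at 6 h only, so UV skin at 24 h has no sham skin of the same time. The labels do not say whether arrays of a group came from separate animals, and p-values therefore measure the spread between these samples. Values are log2 expression made by robust multi-array averaging (RMA), and a difference of 1 is a factor of 2.

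Hair is made by matrix cells at the base of the growing follicle, which stop dividing and become the medulla, cortex and cuticle of the shaft and the inner root sheath around it. Type I and type II hair keratins pair into filaments, and KAPs, rich in cysteine or in glycine and tyrosine, cross-link the filaments into hard fibre. In human follicles the keratin encoded by KRT35 appears low in the matrix and cuticle, that of KRT32 in the cuticle, and those of KRT31, KRT33A, KRT33B, KRT34, KRT81, KRT83 and KRT86 in the cortex, with many KAPs later and higher up. These genes are on in follicles that are growing hair and are low in resting skin. The homeobox factor Hoxc13 is known to activate many of them.

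Promoter stretches of 8 members are shown because genes that moved together and a gene that did not could be compared by their letters. Each line gives the 60 bases before the annotated start of the gene, 5′ to 3′ on the gene's strand, from RefSeq on GRCm38.p6, and capitals mark the TATA box letters TATAAA.
Krt31, chr11:100050552-100050611, minus strand: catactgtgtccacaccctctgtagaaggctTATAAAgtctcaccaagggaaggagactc
Krt32, chr11:100088270-100088329, minus strand: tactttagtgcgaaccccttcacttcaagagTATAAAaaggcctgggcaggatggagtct
Krt34, chr11:100041555-100041614, minus strand: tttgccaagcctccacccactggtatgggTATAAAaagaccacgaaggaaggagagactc
Krtap5-2, chr7:142176006-142176065, minus strand: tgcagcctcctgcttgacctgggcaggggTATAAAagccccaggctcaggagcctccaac
Krtap9-3, chr11:99598107-99598166, minus strand: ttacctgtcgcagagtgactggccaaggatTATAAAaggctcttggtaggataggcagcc
Krtap8-1, chr16:89487953-89488012, minus strand: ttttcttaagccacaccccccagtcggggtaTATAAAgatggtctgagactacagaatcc
Krtap16-3, chr16:88962874-88962933, minus strand: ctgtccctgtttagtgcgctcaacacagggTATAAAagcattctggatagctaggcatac
2310057N15Rik, chr16:88774207-88774266, minus strand: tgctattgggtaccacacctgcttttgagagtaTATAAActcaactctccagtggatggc
RefSeq promoters matched 32 of the 38 members, and Krt33a, Krt35, Krt81, Krt83, Krt86 and Krtap12-1 are named only. TATAAA on the gene strand, lying whole within 45 to 16 bases before the start, was found in 16 of the 32 promoters, 50%, against 2.14% of all 32851 promoters in the table. CTTTGA, the core that TCF and LEF factors bind, was searched on both strands of the 300 bases from 250 before to 50 after the start, and the 2 motifs cannot share a base. It was found in 13 of the 32 member promoters, 40.6%, and in 5257 of the 32851, or 16%. Many members lie in tandem clusters of related copies and are not independent of each other in sequence. Krt31, Krt32, Krt34 and Krtap16-3 hold both motifs, Krtap5-2, Krtap8-1 and Krtap9-3 hold TATAAA alone, and the TATAAA of 2310057N15Rik stands in front of a gene that was hardly detected.

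Most members were detected in skin without UV. A detection call in the deposited dChip table marked 35 to 38 of the 38 genes present on the DMSO sham arrays and 33 to 37 on the AG825 sham arrays. Krtap13 was called present on 14 of 23 arrays, and 2310057N15Rik on 1. After UV in DMSO at 6 h, 35 and 34 members were present on replicates C and G, but 9 on replicate E and 6 on replicate F. DMSO 24 h replicate E had 25 members present and AG825 6 h replicate D had 27.

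Arrays of the same group stood far apart for these genes, and every comparison below is read against that. Across the 38 members the median standard deviation within groups was 1.58 on the log2 scale, against 0.19 over all 19645 probe sets, and 99.9% of probe sets had a lower one. Krtap16-3, a high glycine-tyrosine KAP, had a within-group SD of 2.20, the highest of any probe set on the arrays. A single principal component held 92.5% of the within-group variance of the members, and the next held 3.73%. The genes thus went up and down together from array to array, and members with the same sign are not independent results. To place each array, the member score is the mean over the 38 genes of the log2 value minus the gene's mean over 23 arrays. In the DMSO sham group it was 0.12, 2.00, 1.81 and 0.94 for replicates A to D. At 6 h after UV in DMSO it was -0.39 in replicate C, -2.91 in E, -3.09 in F and -1.05 in G. The 2 groups did not overlap, and E and F lay far below C and G.

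**Figure D1:**
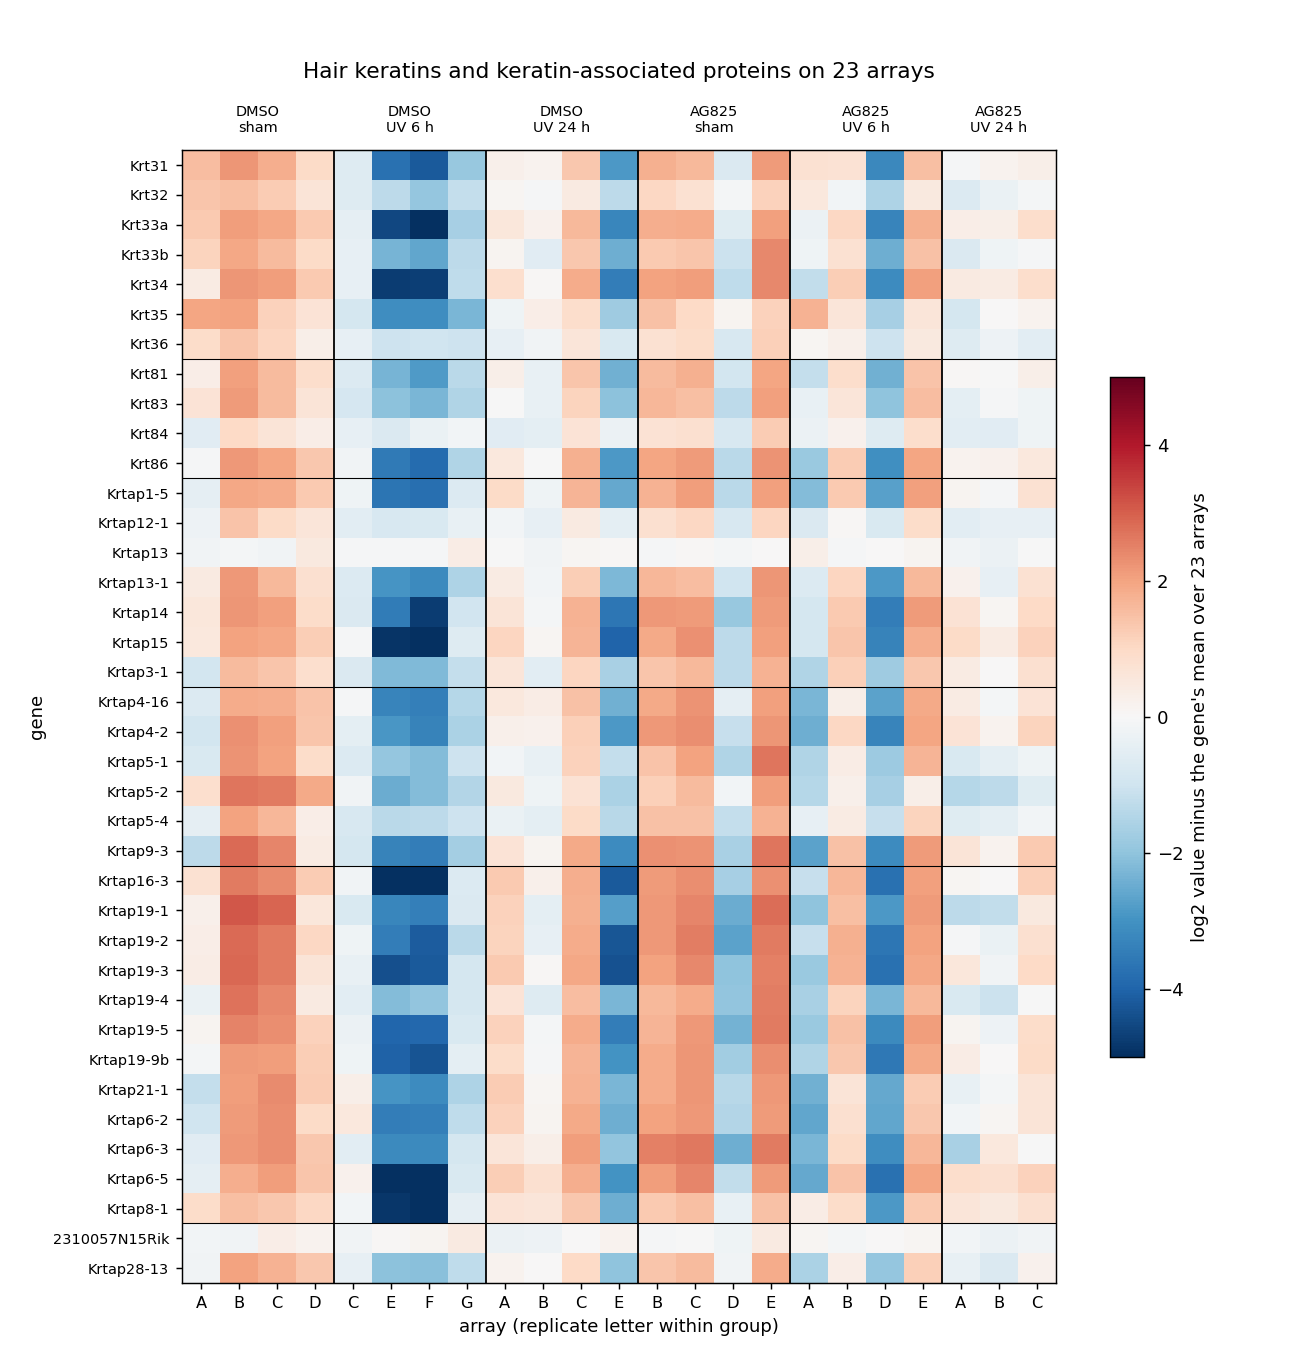
Log2 value of each of the 38 genes (rows, by class) on each of the 23 arrays (columns, by group and replicate letter), minus the gene's mean over the arrays; red is above the mean and blue below. Whole columns share a colour: DMSO 6 h replicates E and F, DMSO 24 h replicate E and AG825 6 h replicate D are blue, with member scores of -2.91, -3.09, -2.34 and -2.44, while Krtap13 and 2310057N15Rik stay pale throughout.

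The member score also varied within the other groups, least at 24 h with AG825. It was 0.50, -0.07, 1.34 and -2.34 in DMSO 24 h replicates A, B, C and E. In the AG825 sham group it was 1.60, 1.76, -1.18 and 1.98 for replicates B to E, so that replicate D, without UV, lay below the DMSO 6 h replicates C and G. For all 38 genes AG825 sham replicate D was the lowest of its group. At 6 h after UV with AG825 the score was -1.10, 0.87, -2.44 and 1.47 for replicates A, B, D and E, and at 24 h it was -0.12, -0.14 and 0.44. The widest range within a group was that of Krtap19-3 at 24 h in DMSO, with 10.52, 9.27, 11.16 and 4.87, a range of 6.29.

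At 6 h after UV in DMSO-painted skin, hair shaft genes were lower as a group. By limma with Benjamini-Hochberg adjustment over all probe sets, 30 of the 38 members fell at an adjusted p under 0.05 and none rose, against 10.7% of all probe sets that fell. The median log2 difference of the members was -3.28, against 0.01 over all probe sets. The arrays of the 2 groups did not overlap for 25 of the members, all lower, against 9.82% of all probe sets. In whole skin, fewer hair-forming cells and less RNA per cell cannot be told apart. The count rests on a few arrays: it was 11 without DMSO 6 h replicate E, 11 without replicate F, 13 without DMSO sham replicate B and 13 without sham replicate C.

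Detection over the whole array was also lower on most DMSO 6 h arrays than in sham. DMSO 6 h replicates E and F had 62.3% and 64.1% of all probe sets called present and replicate G 64.2%, against 66.0% to 71.2% in DMSO sham. Replicate C had 69.2%, within the sham range. Replicates F and G were nearly alike in percent present, with 6 members present on F and 34 on G. The 3 arrays of lowest percent present were E, F and AG825 6 h replicate A with 64.0%. Without them 4 members fell: Krt35, Krt32, Krt36 and Krtap5-2. The DMSO 6 h group was then only replicates C and G, its arrays of highest member score. The median difference was then -2.06. The same 4 genes were lower at the threshold under all 33 alternatives tried. The part of detection or RNA quality in the result was not tested.

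All 7 type I keratins fell, with a median log2 difference of -3.80, and none of them overlapped between the groups. Krt35, the keratin of the matrix and cuticle, had levels of 12.49, 12.52, 11.69 and 11.23 in DMSO sham replicates A to D. After UV they were 9.64, 7.41, 7.44 and 8.25 in replicates C, E, F and G. Every UV array was below every sham array, and Krt35 fell by 3.80 ± 0.63 (SE) on the log2 scale, a 13.9-fold drop, with an adjusted p of 0.000255 in limma. Krt32, the cuticle keratin, stood at 11.03, 11.12, 10.89 and 10.26 in sham skin and at 9.0, 8.34, 7.70 and 8.45 after UV. Every UV array was again below every sham array, and Krt32 fell by 2.45 ± 0.42 (limma adjusted p 0.000327).

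Other type I keratins, most of them known from the cortex, had log2 differences of -4.59 to -1.79. Krt31 had 12.65, 13.3, 12.92 and 12.05 in DMSO sham and 10.45, 7.37, 6.89 and 9.20 after UV. Replicate C lay nearest to the sham arrays and E and F farthest from them, and Krt31 fell by 4.25 ± 0.96 (limma adjusted p 0.00351). Krt33a, with 12.71, 13.51, 13.33 and 12.71 in sham and 10.95, 6.83, 6.39 and 9.74 after UV, fell by 4.59 ± 1.09, a 24.0-fold drop. Krt34 fell by 4.28 ± 1.20 (limma adjusted p 0.0159) and Krt33b by 3.06 ± 0.80. Krt36 fell by 1.79 ± 0.38 (limma adjusted p 0.00205), and its UV arrays were at 8.12, 7.50, 7.52 and 7.49, the last 3 almost the same.

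**Figure D2:**
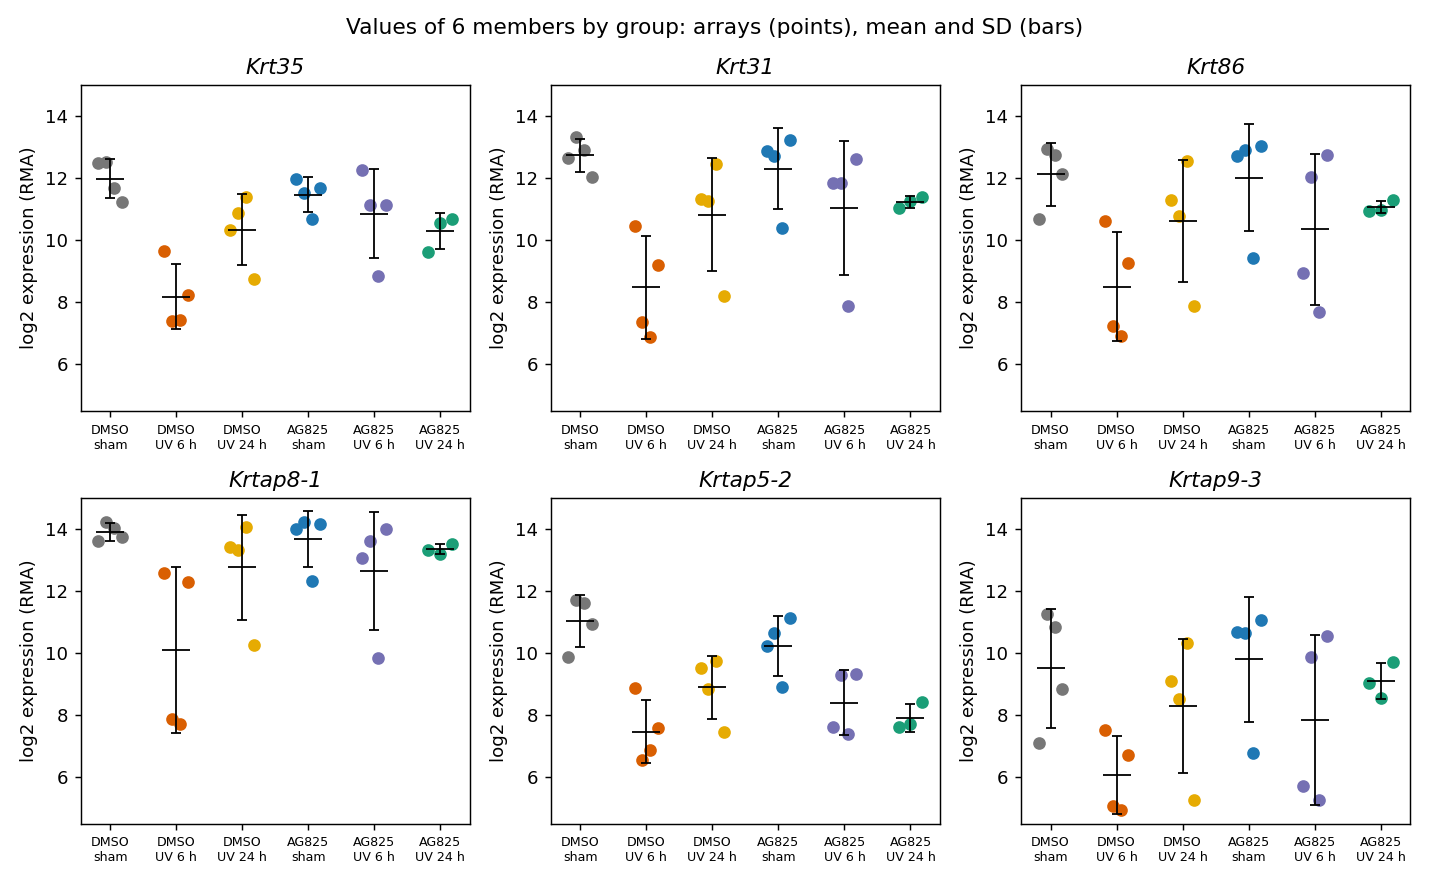
Log2 expression of Krt35, Krt31, Krt86, Krtap8-1, Krtap5-2 and Krtap9-3 by group; points are arrays, the long tick is the group mean and the bar its SD (n = 4, or 3 for AG825 at 24 h). The 4 DMSO 6 h arrays of Krt35 lie between 7.41 and 9.64, all under the sham arrays at 11.23 to 12.52, while those of Krtap8-1 split, with 12.56 and 12.27 against 7.86 and 7.70.

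Of the 4 type II keratins, 3 fell. Krt86, a cortex keratin, stood at 10.70, 12.93, 12.74 and 12.13 in DMSO sham and at 10.61, 7.24, 6.91 and 9.27 after UV. Sham replicate A lay close to UV replicate C without overlap, and Krt86 fell by 3.62 ± 1.11 (limma adjusted p 0.0263). Krt81 fell by 3.01 ± 0.81 and Krt83 fell by 2.92 ± 0.73, with limma adjusted p of 0.0123 and 0.00757. Krt84, a keratin known in humans from the tongue, did not pass the test: its difference was -0.77 ± 0.40, with an interval of -1.59 to 0.05 and an adjusted p of 0.191.

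Of the 27 KAP genes, 20 fell. By class these were 6 of 7 high-sulfur, 5 of 6 ultrahigh-sulfur and 8 of 12 high glycine-tyrosine genes, with medians of -3.26, -3.21 and -3.75, and Krtap28-13 of the 2 genes not placed in a class. The classes were placed by family number. Krtap5-2, an ultrahigh-sulfur KAP, had 9.88, 11.70, 11.62 and 10.94 in DMSO sham and 8.87, 6.54, 6.89 and 7.58 after UV. No arrays overlapped, and it fell by 3.57 ± 0.60 (limma adjusted p 0.00032), an 11.9-fold drop. Krtap28-13 fell by 2.69 ± 0.68 (limma adjusted p 0.0086), and Krtap13-1, a high-sulfur KAP, by 3.35 ± 0.88 (limma adjusted p 0.0104).

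Krtap8-1, a high glycine-tyrosine KAP, had the KAP probe set of highest mean. Its sham arrays were at 13.61, 14.22, 14.04 and 13.72, and its UV arrays at 12.56, 7.86, 7.70 and 12.27. Replicates C and G lay under the sham arrays by far less than E and F did, and the mean fell by 3.80 ± 1.03 (limma adjusted p 0.0129). Krtap16-3, named after its values were seen because its mean fell most, went from 10.56, 12.39, 12.17 and 11.06 to 9.62, 4.62, 4.43 and 9.11, and fell by 4.60 ± 1.41. Krtap12-1 was called absent on all 4 UV arrays, so that it has only a bound there. It was at least 2.46-fold lower than in sham skin (limma adjusted p 0.0268). On replicates E and F only 9 and 6 of the 38 members were called present. Differences and folds of many other members thus also use values without a present call.

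The 7 KAP genes that did not pass were of 2 kinds. Krtap9-3, Krtap6-2, Krtap6-3, Krtap19-4 and Krtap21-1 had differences of -2.70 to -3.44 with adjusted p between 0.0580 and 0.0680, and intervals that left out 0. Krtap9-3, an ultrahigh-sulfur KAP chosen after its values were seen, had 7.11, 11.24, 10.84 and 8.83 in sham skin and 7.52, 5.06, 4.96 and 6.72 after UV. Sham replicate A lay under UV replicate C, and the groups overlapped. Krtap13 differed by 0.04, with an interval of -0.24 to 0.31, and 2310057N15Rik by 0.06, with -0.26 to 0.37. The probe sets that were not used for Krtap19-1 and Krtap6-3 had differences of -0.27 ± 0.17 and 0.06 ± 0.23 in this comparison, against -3.75 and -3.27 on those that were. Short KAP genes of a family are near copies, so a probe set may read several of them.

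**Figure D3:**
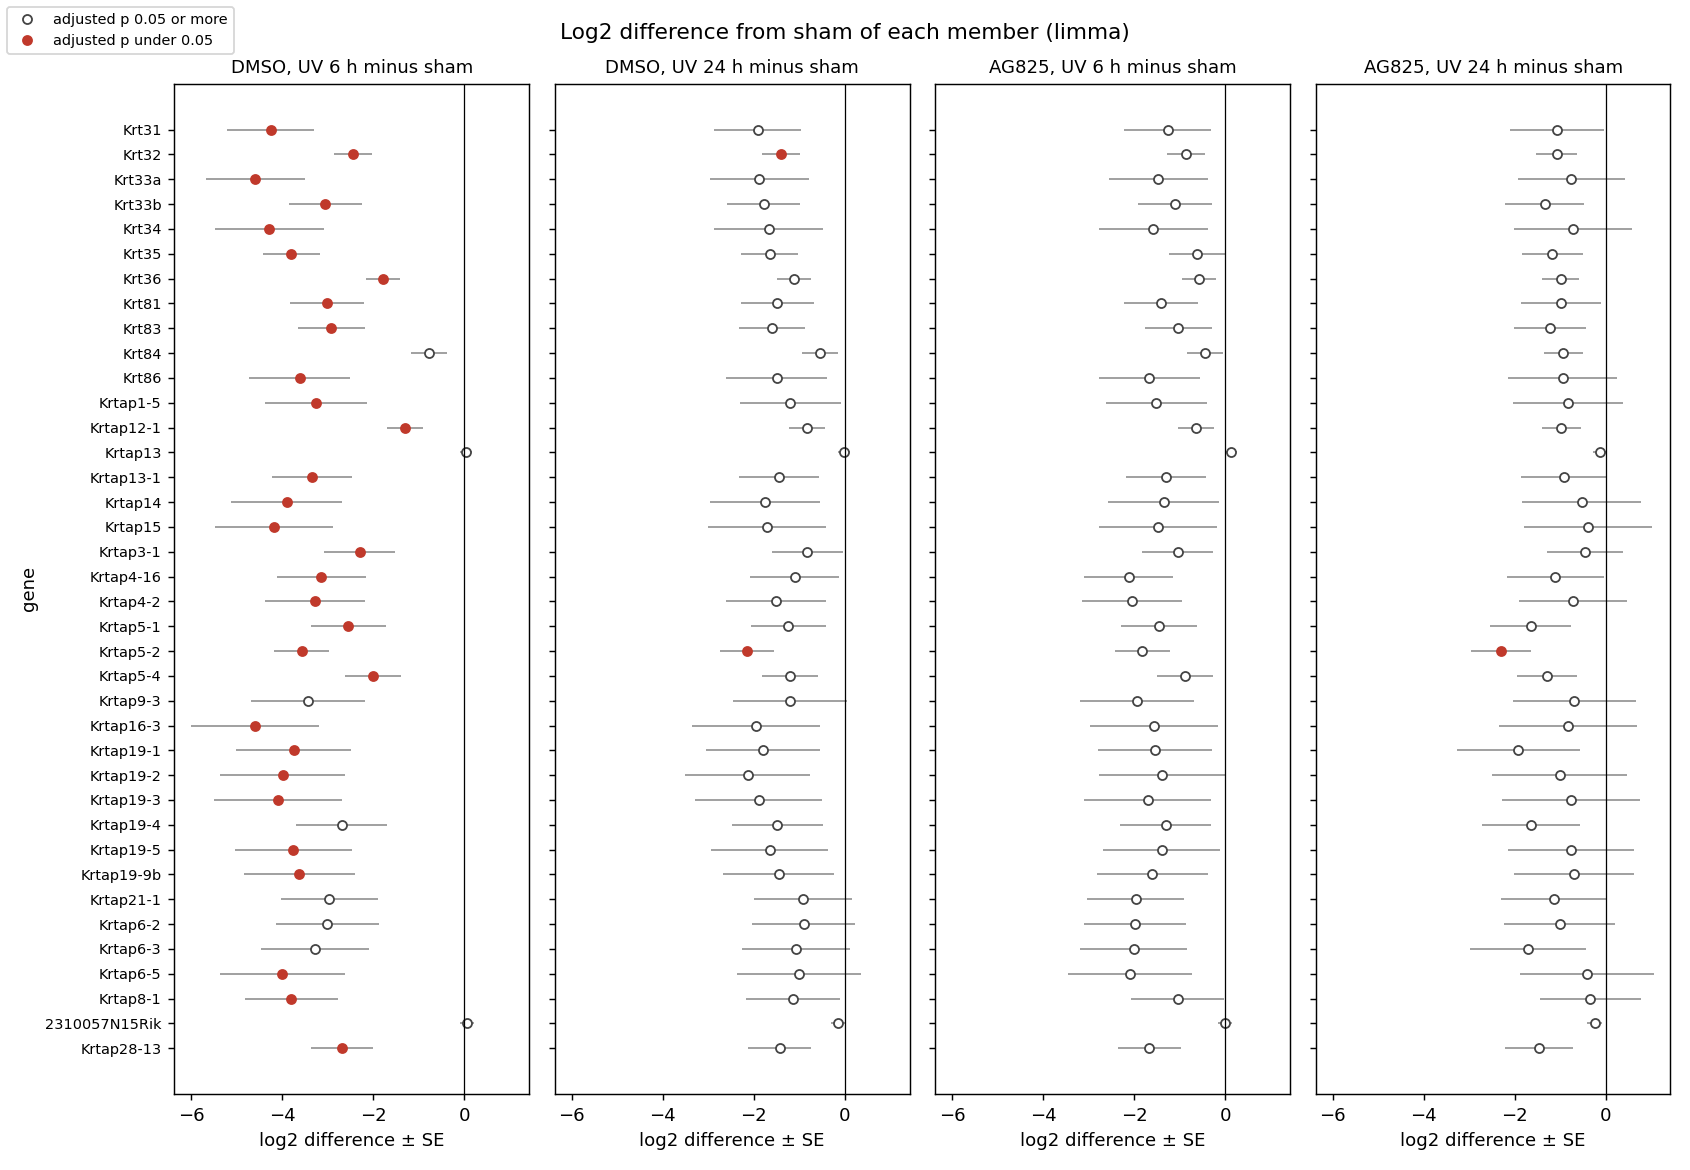
Log2 difference from sham (horizontal axis, point with its standard error) of each of the 38 genes in 4 comparisons, by limma; filled points have an adjusted p under 0.05. At 6 h in DMSO 30 points are filled and at 24 h 2. With AG825 0 are filled at 6 h and 1 at 24 h. Nearly all points lie left of 0 in every panel. The genes varied together from array to array, so their signs are not independent.

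At 24 h after UV in DMSO, 2 members were lower than sham at the threshold, against 3.83% of all probe sets. The sham arrays are those used for the 6 h comparison. All 38 differences were negative, with a median of -1.45, against -0.03 over all probe sets. Krt32 fell by 1.40 ± 0.42 (limma adjusted p 0.0386) and Krtap5-2 by 2.15 ± 0.60 (limma adjusted p 0.028). Krtap5-2 was at 9.52, 8.83, 9.74 and 7.46 in replicates A, B, C and E, all under the lowest sham array. Krt35 was at 10.33, 10.86, 11.39 and 8.74, with a difference of -1.65 ± 0.63 and an adjusted p of 0.118. Krtap12-1, Krtap28-13 and Krtap5-4 had adjusted p of 0.245, 0.244 and 0.287, and those of Krtap6-5 and Krtap13 were 0.802 and 0.983. Without DMSO 24 h replicate E the count was 0 and the median -0.64, and without replicate B, DMSO sham B or sham C it was 0 as well. Without DMSO 24 h replicate A or DMSO sham A it was 1.

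Between 6 h and 24 h in DMSO the members differed by a median of 2.00 upward, with 36 of 38 positive, but none passed. Among all probe sets 0.0458% passed in either direction. At an unadjusted p under 0.05 there were 10 members. Krt35 had the smallest adjusted p, 0.161, with a difference of 2.15 ± 0.63 and an interval of 0.85 to 3.45. The intervals of 28 members included 0. With AG825 the median difference between the times was 0.41, no member passed or had an unadjusted p under 0.05, and 0.229% of all probe sets passed.

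With AG825 on the skin, none of the 38 members passed at 6 h after UV, where 1.26% of all probe sets fell. The differences were negative for 37 of 38, with a median of -1.44 against 0.03 over all probe sets. An unadjusted p under 0.05 was reached by 4 members, and the intervals of 34 members included 0. Krt35 was at 11.98, 11.53, 10.68 and 11.68 in AG825 sham replicates B to E and at 12.27, 11.13, 8.85 and 11.15 at 6 h in replicates A, B, D and E. Replicate A was above every sham array and D below them all, and the difference was -0.61, with an interval of -1.92 to 0.69. Krtap5-2 had the smallest adjusted p, 0.122, with sham arrays at 10.23, 10.64, 8.89 and 11.14 and UV arrays at 7.62, 9.28, 7.38 and 9.31. Its difference was -1.82, with an interval of -3.08 to -0.57.

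The median of this comparison moved with single arrays. It was -2.32 without AG825 sham replicate D and -0.51 without AG825 6 h replicate D, and the count was 0 each time. Percent present was 71.0% on AG825 sham replicate D and 65.8% on 6 h replicate D.

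At 24 h with AG825, Krtap5-2 alone of the members passed, against 1.49% of all probe sets that fell. It was at 7.60, 7.72 and 8.44, under all 4 sham arrays, and fell by 2.30 ± 0.65 (limma adjusted p 0.0434). The median over members was -0.96, against -0.08 over all probe sets. Krtap12-1, Krtap28-13 and Krtap5-4 had adjusted p of 0.201, 0.265 and 0.273, and Krtap15 and Krtap6-5 had 0.875 and 0.878. The Krtap5-2 call was lost when any of the 3 AG825 24 h arrays was left out, or AG825 sham B, C or E. It was also lost without DMSO sham C or D, DMSO 6 h replicate G or DMSO 24 h replicate B. Without AG825 sham replicate D, 5 members passed.

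Over both drugs together, 34 of 38 members fell at 6 h, against 13.3% of all probe sets, with a median of -2.48. At 24 h 5 members fell, against 7.15%: Krt32, Krt35, Krt36, Krtap12-1 and Krtap5-2. Krtap5-2 fell by 2.23 ± 0.44 (limma adjusted p 0.00136) and Krt36, a type I keratin, by 1.05 ± 0.28 (limma adjusted p 0.012). The pooled 6 h count was 6 without the 3 arrays of lowest percent present, a fit whose share of all probe sets is not given here. With 1 array left out it ranged from 19 to 36, and the pooled 24 h count from 3 to 13.

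Direct comparison of AG825 with DMSO passed the threshold for no member and for no probe set at sham, 6 h or 24 h, with 0% of all probe sets called. The median member difference was -0.17 after sham, and all 38 intervals included 0, as they did at 24 h. At 6 h it was 1.59, positive for 37 of 38, and 9 members had an unadjusted p under 0.05. Krt35 was the clearest, with a difference of 2.67 ± 0.63, an interval of 1.36 to 3.97 and a limma adjusted p of 0.295. Its DMSO and AG825 arrays overlapped, since AG825 6 h replicate D at 8.85 was under DMSO 6 h replicate C at 9.64. At 24 h the median was 0.32.

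The interaction of drug and UV asks whether the drop differed between the drugs, and no member passed at 6 h, with 0% of all probe sets called. The median interaction was 1.74, and the median limits of its intervals were -1.03 and 4.54, so the arrays leave room for no difference and for a large one. Krt35 had the smallest adjusted p, 0.48, with an interaction of 3.19 and an interval of 1.34 to 5.03, and Krt31, Krt32 and Krt36 also had an unadjusted p under 0.05. At 24 h the median was 0.40, none passed or had an unadjusted p under 0.05, and 0.00509% of all probe sets passed. The drug comparisons and interactions use the same arrays as the UV comparisons and are no separate evidence.

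The remaining variation was not the same for all members, and it followed class only in part. In the second component the KAP gene Krtap8-1 had the highest loading, the weight of a gene in it, at 0.38. Krt35 had 0.29 and another type I keratin, Krt36, -0.02. On 2 arrays, chosen after their values were seen, several type I keratins were about as high as in the rest of the group while most KAP genes were low. On DMSO sham replicate A, Krt35 was 0.68 above the mean of the other 3 sham arrays, Krt32 0.27 above and Krt31 at -0.11. The other type I keratins were Krt36 at -0.01, Krt33b at -0.38, Krt33a at -0.47 and Krt34 at -1.47. On the same array Krtap9-3 stood at 7.11 against 8.83 to 11.24 on the others, -3.19 from their mean, and the cortex keratin Krt86 at -1.90. By class, the median deviation on this array was -0.11 for type I keratins, -1.18 for type II, -1.21 for high-sulfur, -2.43 for ultrahigh-sulfur and -1.92 for high glycine-tyrosine KAP genes.

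AG825 6 h replicate A was alike by class median, with type I keratins highest and the ultrahigh-sulfur and high glycine-tyrosine KAP genes lowest. Krt35 at 12.27 was 1.89 above the mean of the others, Krt31 1.07 above and Krt32 0.94 above. Krt36 was 0.19 above, Krt33a at -0.12, Krt33b at -0.14 and Krt34 at -1.29. The mean of the others includes the low replicate D. Krtap9-3 at 5.71 was -2.85 from the mean of the others, and Krtap6-2, a high glycine-tyrosine KAP, at 7.69 was -2.45 from it. Class medians were 0.19 for type I and -0.80 for type II keratins, then -0.82, -1.86 and -1.89 for the KAP classes in the same order. Krtap8-1 differed from its class, at 0.58 above the others here and -0.38 from them on sham replicate A. On these 2 arrays the score of 8 proliferation genes was 0.85 and 0.45 and that of 9 melanocyte genes 1.13 and 0.67. Other lists were the lowest of their group there. The epidermis score was -0.11 and -0.86, that of the companion layer and outer root sheath -0.60 and -0.57, and the leukocyte score -1.81 and -0.57. Percent present was 66.9% and 64.0%. The part of these cells and of detection in this pattern was not tested.

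**Figure D4:**
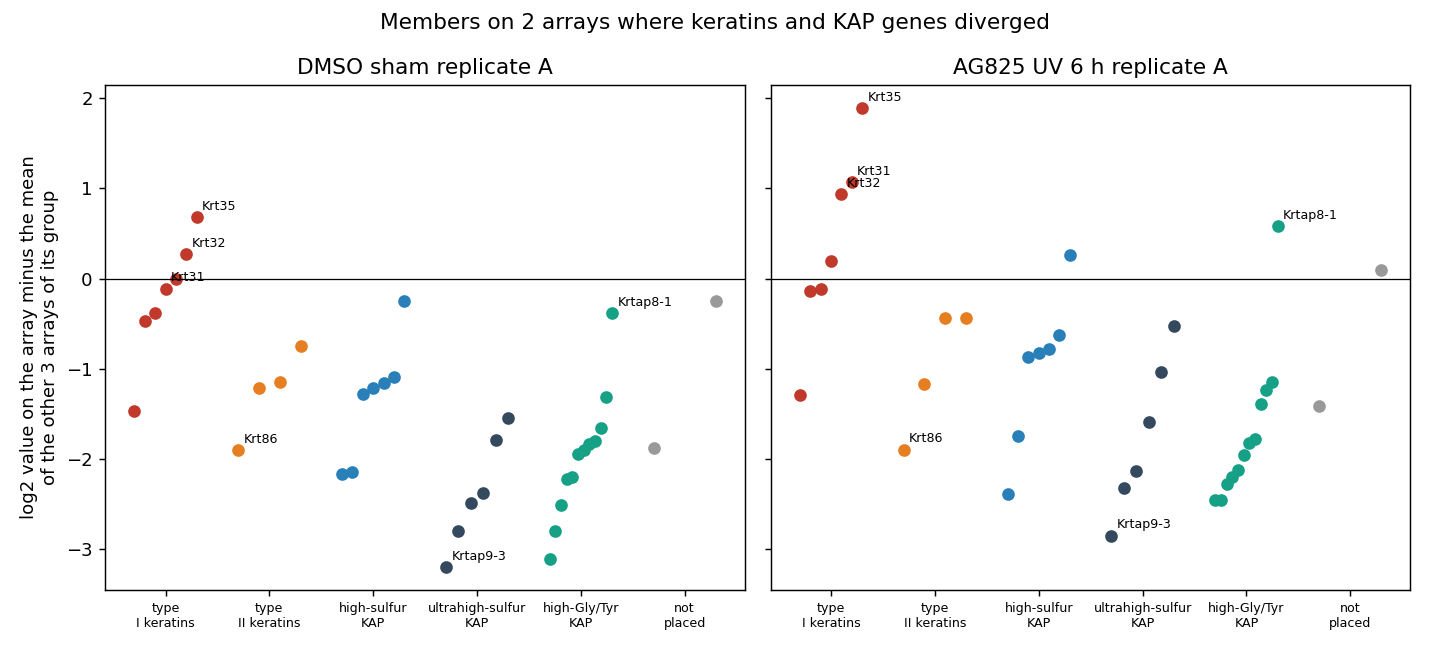
Log2 value of each member on DMSO sham replicate A (left) and on AG825 6 h replicate A (right) minus the mean of the other 3 arrays of its group, by class; each point is a gene. Krt35 lies 0.68 and 1.89 above the mean of the other arrays, Krtap9-3 at -3.19 and -2.85. Another type I keratin, Krt34, lies at -1.47 and -1.29.

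On AG825 sham replicate D and DMSO 24 h replicate E, by contrast, all classes were low. The class medians on sham D ran from -2.53 for type I keratins to -3.94 for high glycine-tyrosine KAP genes, leaving out the 2 genes not placed. On DMSO 24 h replicate E they were -2.74 for type I keratins and -3.70 for high glycine-tyrosine KAP genes.

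The genes outside the set whose values most resembled the member score over the 23 arrays were hair genes in part. Gprc5d, an orphan receptor of keratinising hair cells, had a Pearson r of 0.98, Gm10228 0.98, Psors1c2 0.98, Gm10229 0.98 and Crym, a thyroid hormone binding protein, 0.97. Krt72, an inner root sheath keratin, had 0.97, Pinlyp 0.96, Krt75, the companion layer keratin, 0.96, Chac1 0.96 and Gm11567 0.95. With the group means taken out the first 9 were again the top 9, and Otub2 came next with 0.94. The points share arrays, and a correlation across them is a description.

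Other genes of the follicle were read in the DMSO 6 h comparison from lists chosen with earlier results in view. Of 5 inner root sheath genes all 5 fell, with a median of -3.79. Krt25, an inner root sheath keratin, was at 13.23, 13.53, 13.45 and 13.08 in sham and at 11.64, 6.74, 6.07 and 10.07 after UV, and fell by 4.69 ± 0.86 (limma adjusted p 0.000698). Trichohyalin, Tchh, fell by 4.11, Krt71 by 3.79 and Krt27 by 3.51. With AG825 none of the 5 passed at 6 h, with a median of -1.24 and 0 of 5 at an unadjusted p under 0.05.

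Of 10 genes of the companion layer and outer root sheath 4 fell and 1 rose at 6 h in DMSO, with a median of -0.33. The stem cell factor Lhx2 fell by 1.83, Krt75 fell by 1.87 and the receptor Lgr5 fell by 1.04, while Cd34, which also marks blood vessels, rose by 0.80.

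Of 11 measured partners of the hair shaft 8 fell at 6 h in DMSO, with a median of -1.74. They included S100a3, a calcium-binding protein of the hair cuticle (-3.80), the peptidylarginine deiminase Padi3 (-3.61), Mt4, a metallothionein of squamous epithelia (-3.37), and the aminopeptidase Lap3 (-1.49). Among 24 regulators of hair growth 17 fell and 1 rose, with a median of -0.84. Hoxc13 was at 10.29, 10.17, 9.70 and 9.59 in sham and at 7.73, 6.50, 6.57 and 7.38 after UV, and fell by 2.89 ± 0.38 (limma adjusted p 2.59e-05). The arrays of Hoxc13 did not overlap and were closer together than those of most members. Gata3, a factor of the inner root sheath, fell by 1.86, Dlx3, a homeobox factor, by 2.29 and Lef1, an effector of Wnt signals, by 1.13.

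At 24 h in DMSO 10 regulators fell, Hoxc13 by 1.52 ± 0.38 (limma adjusted p 0.0145). With AG825, 1 of 24 fell at 6 h and 4 at 24 h. Gata3 fell there by 1.02 and by 1.00 (limma adjusted p 0.0144 and 0.0188).

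Markers of other cells in the skin also changed, some downward like the members and others upward. Their part in the result was not tested. At 6 h in DMSO, 8 of 9 melanocyte genes and 7 of 8 proliferation genes fell. The pigment genes Pmel, Dct and Tyr, the last encoding tyrosinase, had log2 differences of -2.27, -2.16 and -2.06. The cell cycle markers Mki67 and Top2a had differences of -1.84 and -1.42. The mean level of the melanocyte list went from 8.78 to 9.68 over the sham arrays to 7.75 to 8.02 over the UV arrays, and that of the proliferation list from 8.97 to 9.57 to 7.73 to 8.55. Of 12 skeletal muscle genes 3 rose, Myh2 by 2.12, Mylpf by 1.01 and Acta1 by 0.53, and the mean level of that list was 11.49 to 12.00 in sham and 12.12 to 12.60 after UV. All 9 leukocyte genes rose, where 7.77% of all probe sets did, from 8.30 to 9.10 in sham to 10.78 to 11.20 after UV, and Cd14 rose by 3.95. Of 6 endothelial genes 5 rose (7.28 to 7.52 against 8.13 to 8.49), Cdh5 by 1.36. Of 7 fibroblast genes Dpt rose by 1.25 and Pdgfra by 1.03 (11.55 to 11.97 against 12.23 to 12.62). None of 8 fat cell genes passed, with 1 at an unadjusted p under 0.05 (9.69 to 10.16 against 10.15 to 10.67). Of 12 genes of the epidermis between follicles 3 fell, Krt5, Ivl and Trp63, with list levels of 10.70 to 11.37 and 10.69 to 11.12. No gene of these lists was called absent on all 23 arrays, whereas 4 of the 24 regulators were.

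With AG825 at 6 h 1 melanocyte gene fell, where 1.26% of all probe sets did, and no proliferation gene passed or had an unadjusted p under 0.05. Of 9 leukocyte genes 4 rose, with a median of 0.90 against 2.20 in DMSO. The share of all probe sets that rose in this comparison is not given here. AG825 sham replicate D, the low array without UV, had a melanocyte score of 0.03 against 0.15 to 0.64 on the other 3, a proliferation score of 0.47 against -0.22 to 0.05 and a muscle score of 0.41 against -0.65 to 0.04. Its leukocyte score was -0.28 against -1.28 to -1.02, its fibroblast score 0.38 against -0.36 to -0.21 and its fat cell score 0.37 against -0.26 to -0.10. The endothelial score was -0.17 against -0.62 to -0.36, the inner root sheath score 0.01 against 1.45 to 1.55 and the epidermis score 0.25 against 0.36 to 0.51. The part of these cells in the low member score was not tested.

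**Figure D5:**
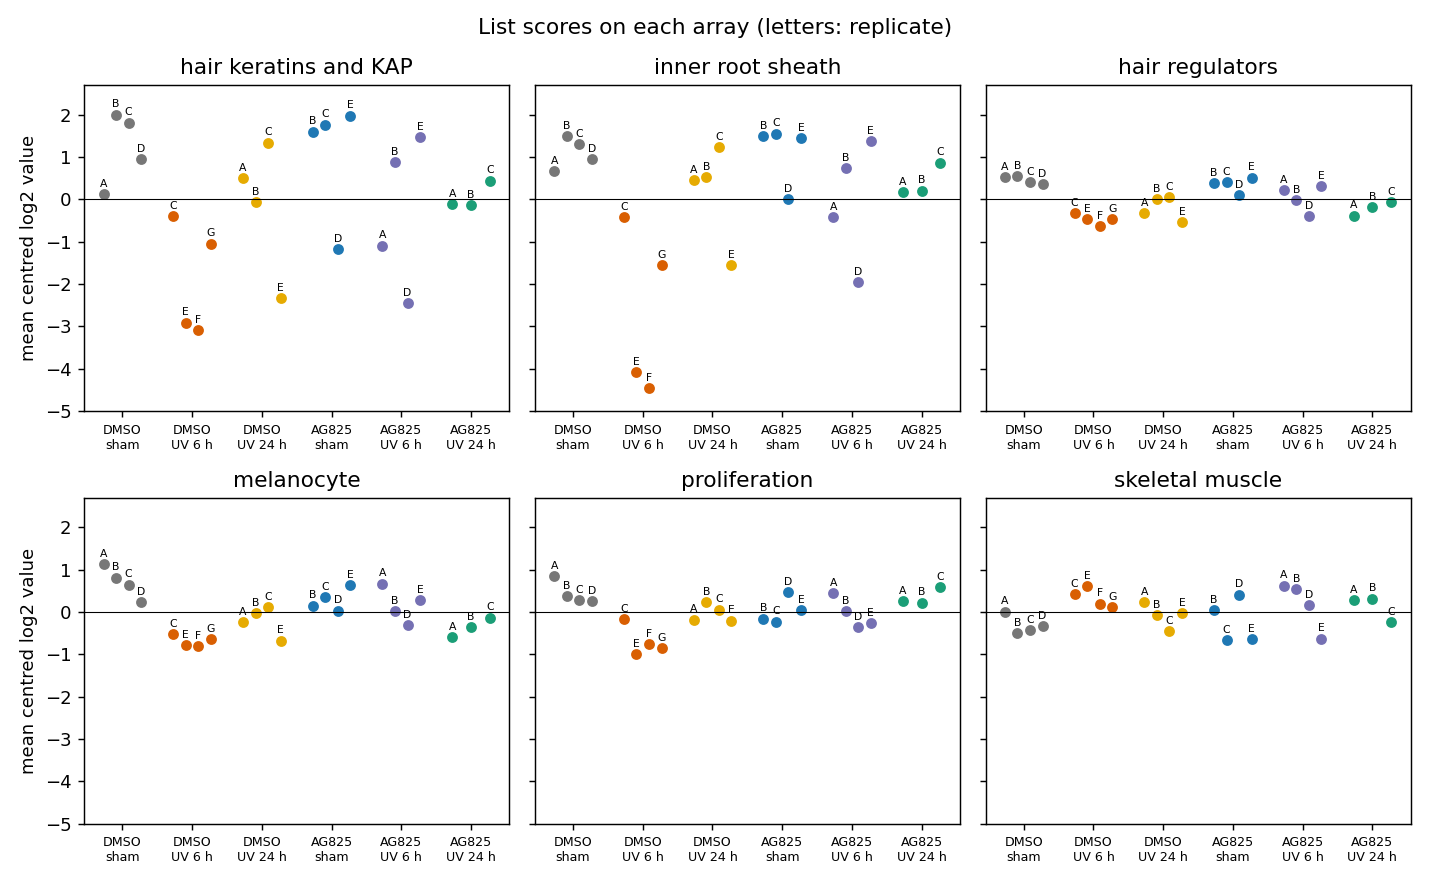
Mean centred log2 value (vertical axis) of 6 gene lists on each array, by group, with the replicate letter above each point. Inner root sheath genes follow the hair keratins and KAP genes, though less far down on AG825 sham replicate D. There the member score is -1.18, the inner root sheath score 0.01 and the melanocyte score 0.03. On the other arrays of that group the inner root sheath score is 1.45 to 1.55.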

How the data were processed

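Values are log2 expression that the authors deposited, and RMA made them per the submitters' processing notes, with no version given. The deposited table holds 19645 probe sets, 17825 of which name 1 gene in the platform annotation. The dChip and GCOS tables that the authors deposited hold signal on a linear scale and detection calls, per the file headers; the GCOS table covers 22 arrays, without DMSO 6 h replicate G. Detection calls and percent present come from the dChip table. Arrays have no read depth, and their number limits the precision.

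All 19645 probe sets of the 23 arrays were fitted in R 4.3.3 with limma 3.58.1, with a mean for each of the 6 groups and a shared spread. There were 13 comparisons, each with Benjamini-Hochberg adjustment over all probe sets and a threshold of 0.05, and intervals are 95% intervals. The fit was tested on simulated data with noise drawn independently for each probe set. Since the members varied together, that test does not cover counts of members called. Groups came from the sample titles. Replicate letters are shared between groups, and the closing section gives their check.

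Members, gene lists and comparisons were chosen with earlier results of these data known. Genes named with values were every hair keratin measured, and, of the KAP genes in each comparison with calls, the 4 of smallest and the 2 of largest adjusted p. The KAP genes of highest and lowest mean and the member with the widest range in a group were added. From each other list genes were named out of the 4 of smallest adjusted p in the DMSO 6 h comparison, and 10 genes most like the members by each correlation. Other names were chosen after values were seen, among them Krtap16-3, Krtap9-3, Krtap6-2, Krtap6-3, Krtap19-1, Krtap19-4 and Krtap21-1.

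Alternatives were the dChip and GCOS signals with a pseudocount of 16, dChip with 1, and the probe set of lowest mean. Others were probe sets present on at least 3 arrays, limma with trend and robust variance, array weights, the replicate letter as a block, and the compared groups alone. Arrays were also left out, each in turn or the 3 of lowest percent present.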

Additional observations from a re-analysis of the deposited data

Results flagged for a closer look

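In groups of 4 arrays, an array was picked out where its gap to the nearest other array, divided by the range of the group, was above Dixon's 95% critical value. This held 30 times in 195 groups, where chance gives about 1 in 20, and the members are not independent of each other.

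AG825 sham replicate D, a sham array, was low in 25 of them. Its member score was -1.18, against 1.60 to 1.98 on the other 3 arrays. Of the keratins, Krt33a stood there at 10.77, Krt34 at 9.47, Krt81 at 10.35, Krt83 at 9.53 and Krt86 at 9.43. Of the high-sulfur KAP genes, Krtap1-5 was at 9.67, Krtap3-1 at 9.23, Krtap12-1 at 9.64, Krtap14 at 8.90 and Krtap15 at 9.85. Krtap14 was at 12.90 to 12.97 on the other 3 arrays. Of the ultrahigh-sulfur genes, Krtap4-2 was at 7.97, Krtap4-16 at 10.55, Krtap5-4 at 7.96 and Krtap9-3 at 6.77. Of the high glycine-tyrosine genes, Krtap6-2 was at 8.83, Krtap6-3 at 6.56, Krtap6-5 at 9.49, Krtap8-1 at 12.32, Krtap16-3 at 8.14 and Krtap21-1 at 9.46. Krtap19-1 was at 6.95, Krtap19-2 at 7.41, Krtap19-3 at 7.20 and Krtap19-9b at 8.97. Percent present was 71.0% on this array, above the other 3 of its group.

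The other 5 were single genes. Krt31 was low on AG825 6 h replicate D, at 7.87 against 11.83 to 12.62. Krtap4-16 was low on DMSO sham replicate A, at 10.32 against 12.42 to 12.86. Krt36 was high on DMSO 6 h replicate C, at 8.12 against 7.49 to 7.52. Krtap13 was high on DMSO sham replicate D, at 6.96, and on DMSO 6 h replicate G, at 6.85.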

How the results depend on the processing

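The drop at 6 h in DMSO held for 20 to 35 members under every alternative summary, filter or model tried: 25 with dChip signal and a pseudocount of 16, 22 with 1, 25 with GCOS signal and 20 with trend and robust variance. It was 4 without the 3 arrays of lowest percent present, which left DMSO 6 h with replicates C and G only. The count over both drugs was then 6. With 1 array left out the DMSO 6 h count ran from 11 to 35, that over both drugs from 19 to 36, and the cause was not tested. At 24 h in DMSO, 2 in the report, the count was 1 with dChip (pseudocount 16), 0 with dChip (pseudocount 1), 1 with GCOS and 7 with array weights, and 0 to 3 with 1 array left out. At 24 h with AG825, 1 in the report, it was 0 with both dChip settings, 0 with GCOS, 0 with trend and robust variance and 20 with array weights, and 0 to 5 with 1 array left out. At 24 h over both drugs, 5 in the report, it was 3 with both dChip settings, 2 with GCOS and 23 with array weights, and 3 to 13 with 1 array left out. Array weights gave AG825 24 h replicate A a weight of 7.65; they also gave 2 members at 6 h with AG825, 1 between 24 h and 6 h in DMSO and 1 between drugs at 24 h. Counts of 0 became 1 between 24 h and 6 h in DMSO without DMSO 6 h replicate C, and between drugs at 6 h without AG825 6 h replicate D (0 to 1 in each); the other comparisons with no calls stayed at 0 with 1 array left out. With 1 array left out the median member difference changed sign in 4 comparisons with no calls: 24 h minus 6 h with AG825 (-0.29 to 1.10), AG825 minus DMSO after sham (-0.51 to 0.66) and at 24 h (-0.47 to 0.83), and the interaction at 24 h (-0.26 to 0.89). The share of all probe sets called is not given here for any alternative, array weights included. A higher or lower count of members is therefore not set against calls over the whole array. On its other probe set Krtap6-3, not called, went to 0.06 at 6 h in DMSO.

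Deviations from group means correlated with a median of 0.17 (-0.23 to 0.67) over 35 pairs of arrays with the same replicate letter, 21 of them over 0.1. Over 185 pairs with different letters the median was -0.03, with 62 over 0.1. Same-letter pairs were thus more alike at the median, though not every one was over 0.1. The labels give the letters no meaning, so the main fit left them out. Whether they mark pairs was not tested. The replicate block gave 24 members at 6 h and 8 at 24 h in DMSO. With AG825 it gave 0 at 6 h and 4 at 24 h, and over both drugs 36 at 6 h and 16 at 24 h. The share of all probe sets called with this block is not given here, so the counts have no background beside them.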
